A study of Mus musculus with 12 samples.

Results

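The 10 genes described here encode enzymes that methylate lysine 9 of histone H3 and proteins that bring them to chromatin or bind the mark. They were taken by symbol from the 46095 genes of the count table and all 10 were present: Suv39h1, Suv39h2, Setdb1, Setdb2, Ehmt1, Ehmt2, Trim28, Cbx1, Cbx3 and Cbx5. RNA was sequenced from liver cancers that the carcinogen diethylnitrosamine had produced in mice, 7 libraries from Pck1-null animals (KO) and 5 from wild-type animals (WT). All animals of both genotypes carried such tumours, so no untreated liver stands beside them. The labels give neither strain, sex, age nor the kind of Pck1 allele, and do not say whether it was lost in hepatocytes alone. They also do not state that each library came from its own animal, so that p-values measure the spread between these libraries. The comparison asks whether transcripts of the H3K9 machinery differed between KO and WT tumours.

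Methylation of lysine 9 on histone H3 marks silent chromatin. Suv39h1 and Suv39h2 place the trimethyl mark on pericentromeric heterochromatin, and Setdb1 places it on retroelements and silenced genes, where Trim28 (KAP1) tethers it to KRAB zinc finger proteins. Ehmt1 (GLP) and Ehmt2 (G9a) work as a heterodimer that mono- and dimethylates H3K9 in gene-rich chromatin, and Setdb2 is a SET domain relative of Setdb1. The heterochromatin protein 1 family, Cbx5 (HP1 alpha), Cbx1 (HP1 beta) and Cbx3 (HP1 gamma), reads the mark through a chromodomain. All of these methyltransferases take their methyl group from S-adenosylmethionine, which the liver makes in large amounts from methionine.

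Total counts lay between 17462102 and 23663506 in 7 shallower libraries (4 KO and 3 WT) and between 43071365 and 46747125 in 5 deeper ones (3 KO and 2 WT), a split on which the labels are silent. Levels are given as CPM, counts scaled to a common library size by the TMM method. Xist, the RNA that coats an inactive X chromosome, was at 91.0 to 167 CPM in 5 KO libraries (replicates 1, 2, 3, 5 and 6) and 1 WT library (replicate 4), and at no more than 0.703 CPM in the others. Pck1 itself, which the KO label calls null, had 111 to 1167 CPM in KO tumours (median 219). In WT tumours it had 1063 to 5822 CPM, with KO replicate 3 above WT replicate 4. Its log2 difference was −3.28 ± 0.67 (SE) and it did not pass the threshold in edgeR's quasi-likelihood test (Benjamini-Hochberg adjusted p = 0.170). The 8 hepatocyte markers summed to 61079 to 157601 CPM in KO and 58267 to 207537 CPM in WT tumours, and none of them was at 0. The 10 neutrophil markers summed to 291 to 4083 CPM in KO and 390 to 1230 CPM in WT tumours, none at 0 in any library. Most of that sum was Lcn2, which hepatocytes also make, and the other 9 summed to 32.8 to 1614 CPM in KO and 28.7 to 54.2 CPM in WT tumours. In such bulk samples, fewer cells of a type and less RNA per cell cannot be told apart. S100a11, a calcium-binding protein raised in many tumours, had 21.8 to 115 CPM in KO and 18.3 to 75.9 CPM in WT tumours.

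No member passed the threshold between KO and WT tumours. The fit across 14666 genes, of which 9 were members, called 0 genes at an adjusted p under 0.05 (0% of all genes tested) in edgeR's quasi-likelihood test. Setdb2 was left out of it by the filter on low counts. At an unadjusted p under 0.05 the same test held 1 of the 9 members, Trim28, which was higher in KO, against 14.7% of all genes in either direction and 7.25% in that direction. The fitted log2 difference was positive for 5 members and negative for 4, against 53.7% positive over all genes, with a median of 0.07 for the members and 0.03 over all genes. Groups did not overlap for 0 of the members, against 1.21% of all genes. These shares lay near those of all genes.

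**Figure D1:**
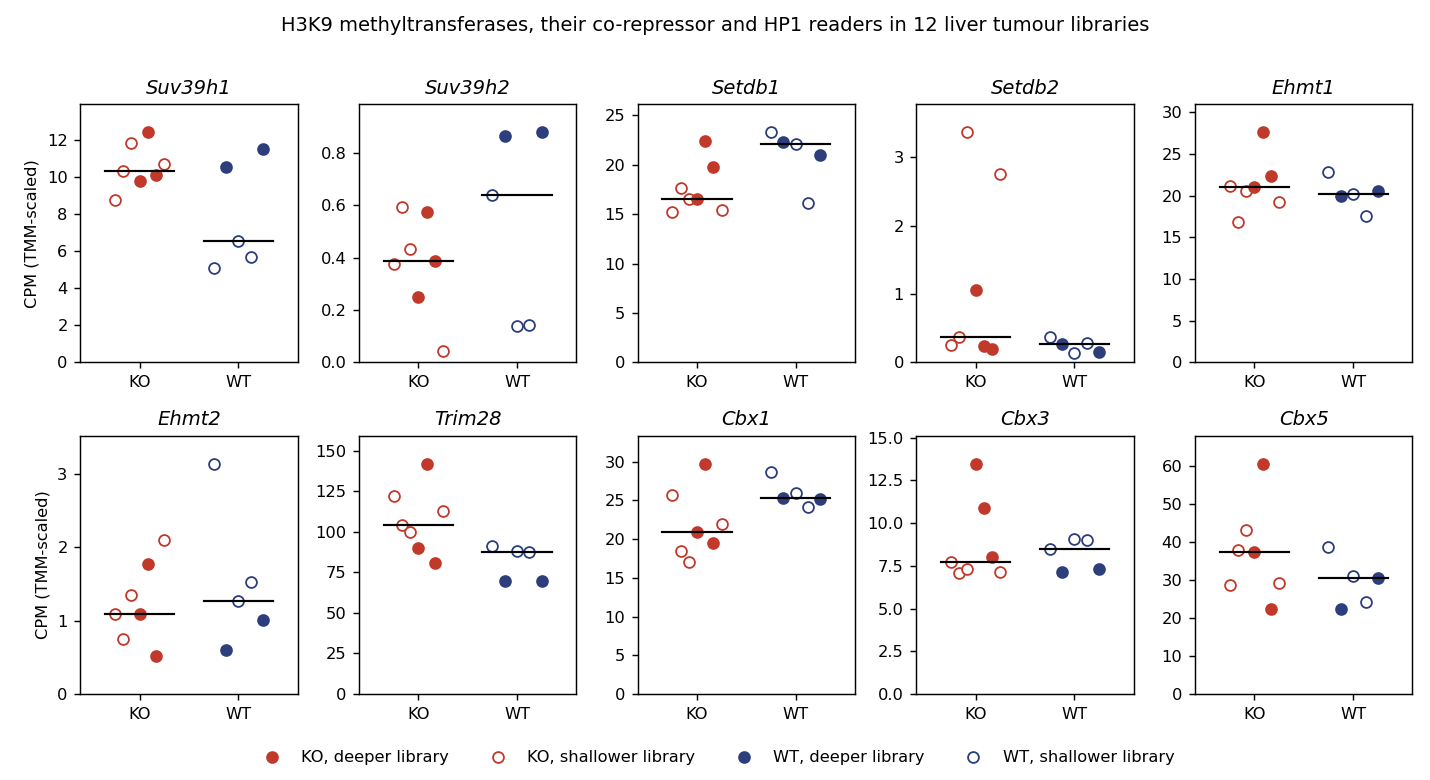
CPM of each of the 10 members (a panel per gene, each axis from 0) in the 7 KO libraries at the left and the 5 WT libraries at the right, with points filled for deeper and open for shallower libraries and a line at each group median. In the Trim28 panel 5 KO libraries lie above every WT library, and in the Setdb2 panel 3 KO libraries, at 1.05 to 3.37 CPM, lie far above the rest.

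Set against gene length, the members fell into an abundant, a middle and a scarce tier. Trim28 had a median of 21.8 CPM per kilobase of exon over the 12 libraries, above the next gene in all 12. Cbx1 followed with 5.78 CPM per kilobase and Cbx5 with 3.42 CPM per kilobase, Cbx1 standing above Cbx5 in 11 libraries and Cbx5 above Setdb1 in 10. Setdb1 (2.73 CPM per kilobase) and Ehmt1 (2.54 CPM per kilobase) could not be ordered over all libraries, since Setdb1 was higher in 2 of 7 KO and 5 of 5 WT libraries and they changed places when the longest transcript was used for length. Suv39h1 had 1.94 and Cbx3 1.31 CPM per kilobase, with Suv39h1 higher in 6 of 7 KO and 2 of 5 WT libraries. At the foot of the order, Ehmt2 had 0.214, Suv39h2 0.0931 and Setdb2 0.0692 CPM per kilobase, and Suv39h2 stood above Setdb2 in 4 of 7 KO and 3 of 5 WT libraries. Within the methyltransferase pairs the medians of the counted reads thus differed widely, with Suv39h1 far above Suv39h2 and Ehmt1 far above Ehmt2. C2, a complement gene beside Ehmt2, was low too, at 0.0715 to 1.94 CPM in KO and 0.502 to 3.75 CPM in WT tumours. How fully reads from the Ehmt2 region were counted was not tested.

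**Figure D2:**
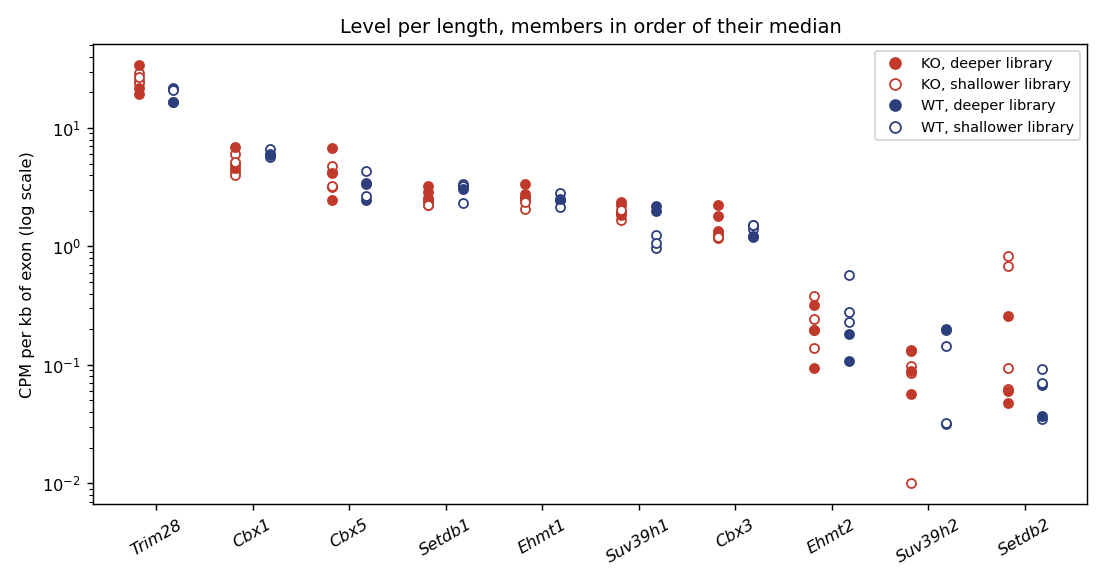
CPM per kilobase of exon (log axis) of the 10 members in order of their median, with KO libraries at the left and WT libraries at the right of each gene, filled for deeper and open for shallower ones. The order runs from Trim28 at 21.8 CPM per kilobase to Setdb2 at 0.0692 CPM per kilobase, and Ehmt2, Suv39h2 and Setdb2 lie below all other members.

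The promoter windows of 5 genes are shown: Suv39h1 and Trim28, whose levels are described below, and Setdb2, Cbx5 and Hnrnpa1, because each lies back to back with another gene. No link between these sequences and the levels was tested. Each runs from 250 bases before to 50 after the start in RefSeq (GRCm38.p6), which listed all 10 members, and is written 5′ to 3′ on the gene's own strand. Capitals mark matches on either strand to CCAAT (the NF-Y type), GGGCGG (the GC box), GCGCA and GCGC with 1 base of any kind between them (the NRF1 type) and ATGGCGG (the YY1 type), where matches may overlap. The windows are chrX:8074711-8075010 (minus strand) for Suv39h1, chr7:13023902-13024201 (plus) for Trim28, chr14:59440831-59441130 (minus) for Setdb2, chr15:103239803-103240102 (minus) for Cbx5 and chr15:103240147-103240446 (plus) for Hnrnpa1.
Suv39h1: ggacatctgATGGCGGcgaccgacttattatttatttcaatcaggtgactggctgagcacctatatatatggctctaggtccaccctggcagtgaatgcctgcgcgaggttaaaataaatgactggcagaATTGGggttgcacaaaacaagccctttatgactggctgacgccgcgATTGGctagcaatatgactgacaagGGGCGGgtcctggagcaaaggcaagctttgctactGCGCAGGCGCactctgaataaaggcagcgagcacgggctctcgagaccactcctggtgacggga
Trim28: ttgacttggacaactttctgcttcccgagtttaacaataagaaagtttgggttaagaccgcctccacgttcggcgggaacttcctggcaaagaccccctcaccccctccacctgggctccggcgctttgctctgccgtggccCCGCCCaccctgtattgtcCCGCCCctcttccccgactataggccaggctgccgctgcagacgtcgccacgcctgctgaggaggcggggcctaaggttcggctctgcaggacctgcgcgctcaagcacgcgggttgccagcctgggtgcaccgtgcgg
Setdb2: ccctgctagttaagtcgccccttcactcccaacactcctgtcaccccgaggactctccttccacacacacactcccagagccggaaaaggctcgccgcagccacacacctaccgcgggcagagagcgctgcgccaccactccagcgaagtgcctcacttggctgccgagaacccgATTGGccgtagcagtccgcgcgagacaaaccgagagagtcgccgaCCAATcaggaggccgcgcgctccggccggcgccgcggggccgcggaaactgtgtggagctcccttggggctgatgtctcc
Cbx5: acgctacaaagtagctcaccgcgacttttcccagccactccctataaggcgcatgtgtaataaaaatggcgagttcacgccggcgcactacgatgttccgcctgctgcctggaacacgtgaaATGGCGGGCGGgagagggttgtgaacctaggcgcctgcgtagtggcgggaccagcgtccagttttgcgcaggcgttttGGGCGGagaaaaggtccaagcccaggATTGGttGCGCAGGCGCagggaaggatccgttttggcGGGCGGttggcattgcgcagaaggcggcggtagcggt
Hnrnpa1: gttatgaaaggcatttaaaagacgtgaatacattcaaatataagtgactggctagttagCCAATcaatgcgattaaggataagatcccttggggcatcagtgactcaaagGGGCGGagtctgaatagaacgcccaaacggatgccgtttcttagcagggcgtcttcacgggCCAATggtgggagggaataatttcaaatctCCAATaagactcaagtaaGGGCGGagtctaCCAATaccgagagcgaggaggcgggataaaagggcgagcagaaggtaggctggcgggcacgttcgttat

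The NRF1 type was found in the windows of 4 of the 10 members (Suv39h1, Suv39h2, Ehmt1 and Cbx5), against 4.60% of all 32851 windows of that length and 12% of the 11378 windows with at least 15 CG dinucleotides. ATGGCGG was found in 4 (Suv39h1, Suv39h2, Ehmt2 and Cbx5), against 4.05% and 8.95%. GGGCGG was in the windows of 9 members, all but Setdb2, against 35.7% and 76.8%, and CCAAT in 4, against 37.4% and 34.9%. The members' windows were rich in CG, each holding more than 65.4% to 92.3% of all windows do. Suv39h1, Suv39h2 and Cbx5 held both the NRF1 type and ATGGCGG, and the share of all windows that hold both was not computed.

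Of the SUV39 pair, Suv39h1 (chromosome X, 8061171 to 8074760, GENCODE M21 on GRCm38) was the one with a measurable level. It had 8.75 CPM in the lowest KO library, 10.3 in the median and 12.4 in the highest, against 5.12, 10.6, 6.53, 5.68 and 11.5 CPM in WT replicates 1 to 5. All 7 KO libraries lay above the WT mean of 7.89 CPM, but only 2 lay above every WT library. The log2 difference of 0.42 ± 0.22 (SE) did not pass the threshold (edgeR, adjusted p = 0.393), and with limma-voom and sample weights it was 0.047 ± 0.18 (SE, adjusted p = 0.880).

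The WT libraries of Suv39h1 split by depth. In the shallower libraries it had 8.75 to 11.9 CPM in KO and 5.12 to 6.53 CPM in WT tumours, with no overlap, a mean log2 difference of 0.84. In the deeper ones it had 9.79 to 12.4 CPM in KO and 10.6 to 11.5 CPM in WT tumours, a mean log2 difference of −0.04. The genotype by depth interaction of −0.89 ± 0.28 (SE) had an unadjusted p of 0.00939 in edgeR's test and an adjusted p of 0.514. Suv39h1 is X-linked, and the Xist-high libraries were 5 of 7 in KO and 1 of 5 in WT. Among the 6 Xist-high libraries it had 8.75 to 12.4 CPM in 5 KO libraries against 5.68 CPM in 1 WT library, and among the 6 Xist-low ones 9.79 and 10.7 CPM in 2 KO libraries against 5.12 to 11.5 CPM in 4 WT libraries. With the depth class as a covariate the log2 difference was 0.47 ± 0.19 (SE; edgeR, unadjusted p = 0.0294, adjusted p = 0.265), and with the Xist class it was 0.51 ± 0.27 (SE; edgeR, unadjusted p = 0.0870, adjusted p = 0.499). An annotated antisense gene, Gm14820, overlaps Suv39h1, and with the strand setting not given in the sources used here their reads cannot be told apart.

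Suv39h2 (chromosome 2, 3455815 to 3475031), the paralogue best known from testis, was near the detection limit, with 1 to 26 counts in KO and 2 to 38 counts in WT libraries. Its level was 0.0438 CPM in the lowest, 0.388 in the median and 0.592 in the highest KO library, against 0.640, 0.867, 0.141, 0.143 and 0.880 CPM in WT replicates 1 to 5. The groups overlapped, and the lowest value, in KO replicate 7, rests on 1 count. The other shallower KO libraries, replicates 1, 2 and 3, held 9, 11 and 9 counts, and the cause of the low value was not tested. The log2 difference was −0.53 ± 0.59 (SE; edgeR, adjusted p = 0.688). The gene overlaps Dclre1c, a DNA repair nuclease on the other strand, by 8316 bases.

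Trim28 (chromosome 7, 12999114 to 13031035), the corepressor that couples KRAB zinc finger proteins to Setdb1, was the most abundant member and the one with the smallest p. KO libraries had 80.9 CPM at the lowest, 104 at the median and 142 at the highest, against 91.5, 69.7, 88.3, 87.3 and 69.5 CPM in WT replicates 1 to 5. In KO 6 of 7 libraries lay above the WT mean of 81.2 CPM and 5 of them above every WT library. Only KO replicates 4 and 6, both deeper libraries, fell within the WT range. The fitted difference was 1.32-fold (log2 0.40 ± 0.15, SE), with an unadjusted p of 0.0212 and an adjusted p of 0.273 in edgeR's test.

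Within a depth class the Trim28 groups did not overlap. In the shallower libraries it had 99.8 to 122 CPM in KO and 87.3 to 91.5 CPM in WT tumours, and in the deeper ones 80.9 to 142 CPM in KO and 69.5 to 69.7 CPM in WT tumours. Such a separation was found in 3 of the 10 members in the shallower libraries (Suv39h1 and Trim28 higher in KO, Cbx3 lower) against 10.8% of all genes tested. In the deeper libraries it was found in 4 (Ehmt1, Trim28 and Cbx3 higher in KO, Suv39h2 lower) against 40.0% of all genes. Trim28 was thus the only member separated in the same direction in both classes, and the share of all genes separated in that way was not computed. The mean log2 difference was 0.31 among the Xist-high libraries, which hold 1 WT library, and 0.35 among the Xist-low ones. With the Xist class as a covariate the difference was 0.34 ± 0.18 (SE) and lost the unadjusted threshold (edgeR, unadjusted p = 0.0853, adjusted p = 0.496). It also lost it without WT replicate 2 or WT replicate 5 (edgeR, unadjusted p = 0.0578 and 0.0509). With limma-voom and sample weights, Trim28 was the 1 member called (0.47 ± 0.12, SE, adjusted p = 0.0267), where 14.6% of all genes were called. With DESeq2, which called 3.41% of genes and 0 members, its adjusted p was 0.137. In GENCODE the gene overlaps Zbtb45, on the other strand, by 6137 bases, all of them before the RefSeq start of Trim28 at 13024152. Zbtb45 had 4.60 to 10.6 CPM in KO and 4.15 to 10.6 CPM in WT tumours. Over the 12 libraries the levels of the overlapping genes had a Pearson r of 0.56 (permutation p = 0.0577, adjusted p = 0.115) and a Spearman rho of 0.48 (permutation p = 0.119), with r at 0.13 without KO replicates 5 and 1, 0.76 within KO (exact permutation p = 0.0496) and 0.10 within the shallower libraries. The part of reads from the overlap in the Trim28 counts was not tested.

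Setdb1 (chromosome 3, 95323525 to 95357202), the methyltransferase that Trim28 recruits, had a difference of the opposite sign. KO libraries had 15.2 CPM at the lowest, 16.6 at the median and 22.4 at the highest, against 23.3, 22.3, 22.1, 16.1 and 21.0 CPM in WT replicates 1 to 5. In 6 of 7 KO libraries the level was below the WT mean of 21.0 CPM, while WT replicate 4 stood apart at the bottom of its group. The log2 difference was −0.25 ± 0.13 (SE; edgeR, adjusted p = 0.402). The mean log2 difference was −0.32 within the shallower and −0.16 within the deeper libraries. Among the Xist-high libraries, where WT replicate 4 is the 1 WT library, it was 0.17, and among the Xist-low ones −0.47. Across the 12 libraries the pair was not correlated (Pearson r = −0.33, permutation p = 0.301; Spearman rho = −0.27, permutation p = 0.404).

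**Figure D3:**
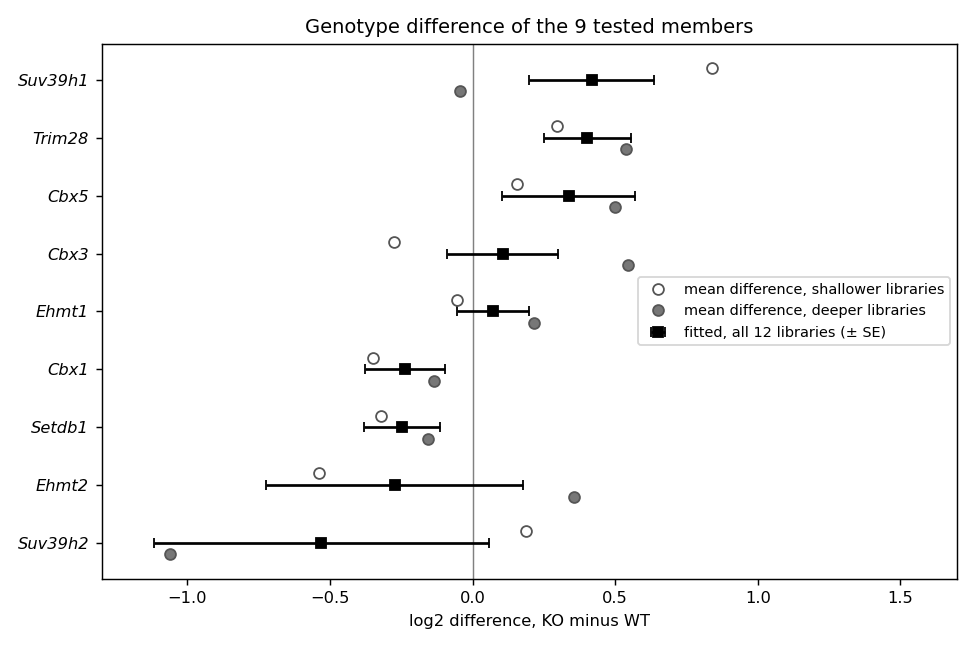
Fitted log2 difference (KO minus WT) of the 9 tested members with its SE as a bar, and the mean log2 difference within the shallower (open) and deeper (filled) libraries. Trim28 and Cbx5 lie right of 0 and Setdb1 and Cbx1 left of 0 in both classes, and the other 5 members change sides between them.

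Setdb2 (chromosome 14, 59402009 to 59440884), too low for the fit, stood out in 3 KO tumours. It had 3.37 CPM in KO replicate 3, 2.76 in replicate 7 and 1.05 in replicate 4, from 70, 63 and 59 counts. The other 4 KO libraries had 0.194 to 0.377 CPM, and the WT libraries had 0.373, 0.274, 0.141, 0.286 and 0.151 CPM. All 9 of these libraries held 2 to 12 counts. With no filter on low counts the log2 difference was 2.24 ± 0.82 (SE; edgeR, adjusted p = 0.349). The 10 neutrophil markers summed to 4083, 2266 and 1661 CPM in KO replicates 3, 7 and 4, of which Lcn2 made up 2469, 2233 and 1410 CPM. The other 9 markers summed to 1614 CPM in KO replicate 3, 32.8 in replicate 7 and 251 in replicate 4, to 400 in KO replicate 6 and to 33.8 to 43.7 in the remaining KO libraries, against 28.7 to 54.2 CPM in the WT libraries. The 3 libraries highest in Setdb2 thus had the 3 largest sums of all 10 markers. For the 9 markers without Lcn2, KO replicate 7 was within the WT range and KO replicate 6, low in Setdb2, was above it. The part of neutrophils in the Setdb2 level was not tested.

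Setdb2 shares its promoter region with Cab39l, which encodes a scaffold of the LKB1 kinase complex and is read in the other direction. The RefSeq starts lie 83 bases apart, so that the Setdb2 window printed above also holds the start of Cab39l. Cab39l had 198 CPM in KO replicate 3, 116 in replicate 7 and 89.5 in replicate 4. In the other 4 KO libraries it had 35.7 to 76.2 CPM, and in the WT libraries 78.5, 55.3, 55.8, 49.2 and 65.0 CPM. The 3 libraries highest in Setdb2 were thus also the 3 highest in Cab39l, in the same order. Since they stand apart, no correlation over all 12 is given. Among the other 9 libraries Pearson's r was 0.21 (exact permutation p = 0.578) and Spearman's rho 0.25 (exact permutation p = 0.521). The genotype difference of Cab39l was 0.53 ± 0.38 on the log2 scale (SE; edgeR, adjusted p = 0.523).

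**Figure D4:**
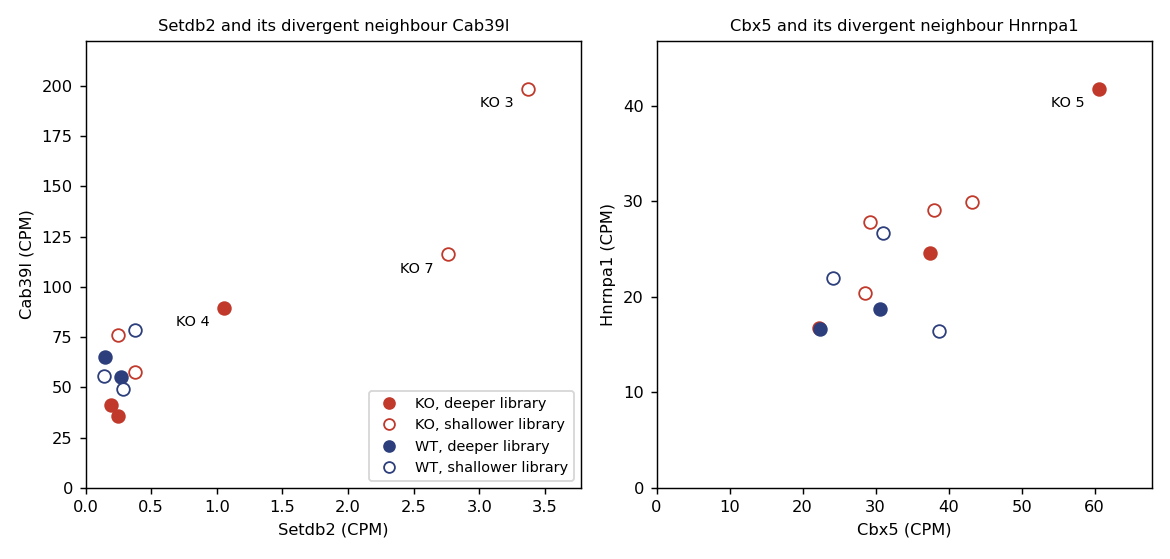
CPM of Setdb2 (horizontal) against Cab39l (vertical) at the left and of Cbx5 against Hnrnpa1 at the right, a point for each of the 7 KO (red) and 5 WT (blue) libraries, filled for deeper and open for shallower ones. In the left panel KO replicates 3, 7 and 4 lie to the right of all others, and in the right panel KO replicate 5 is highest on both axes.

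Of the heterodimer of the euchromatic methyltransferases, Ehmt1 (chromosome 2, 24789928 to 24919614) differed least between the genotypes. It had 16.8 CPM in the lowest, 21.0 in the median and 27.6 in the highest KO library, against 22.8, 19.9, 20.2, 17.6 and 20.6 CPM in WT replicates 1 to 5. The WT range lay inside the KO range, and the log2 difference was 0.07 ± 0.13 (SE; edgeR, adjusted p = 0.815). Ehmt2 (chromosome 17, 34898469 to 34914052) had 0.517 CPM in the lowest, 1.09 in the median and 2.10 in the highest KO library, against 3.15, 0.593, 1.26, 1.53 and 1.01 CPM in WT replicates 1 to 5. WT replicate 1 was the highest of all 12 libraries and the rest overlapped. The log2 difference of −0.27 ± 0.45 (SE; edgeR, adjusted p = 0.802) became 0.18 without that library. The transcripts of the partners were not correlated over the 12 libraries (Pearson r = 0.25, permutation p = 0.431; Spearman rho = 0.15, permutation p = 0.653).

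Among the readers, Cbx1 (chromosome 11, 96789127 to 96808640) was the most abundant per length. It had 17 CPM in the lowest, 21.0 in the median and 29.8 in the highest KO library, against 28.6, 25.3, 25.9, 24.2 and 25.2 CPM in WT replicates 1 to 5. The WT libraries were close together, 5 of the 7 KO libraries lay below all of them and KO replicate 5 lay above all of them. The log2 difference was −0.24 ± 0.14 (SE; edgeR, adjusted p = 0.446).

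Cbx3 (chromosome 6, 51470360 to 51483704) had 7.05 CPM in the lowest, 7.70 in the median and 13.5 in the highest KO library, against 8.48, 7.14, 9.06, 9.02 and 7.29 CPM in WT replicates 1 to 5. The direction turned with depth. In the shallower libraries it had 7.05 to 7.70 CPM in KO and 8.48 to 9.06 CPM in WT tumours, and in the deeper ones 8.02 to 13.5 CPM in KO and 7.14 to 7.29 CPM in WT tumours. The pooled log2 difference was 0.11 ± 0.19 (SE; edgeR, adjusted p = 0.825), and the genotype by depth interaction was 0.86 ± 0.30 (SE; edgeR, unadjusted p = 0.0172, adjusted p = 0.514). Such an unadjusted interaction was found in 2 of the 9 tested members, Suv39h1 and Cbx3, and in 9.55% of all genes. Its counts are uncertain, because the annotation names 8 Cbx3 pseudogenes and 1 of them, Cbx3-ps6, held 26.3% to 66.9% as many counts as Cbx3 itself.

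Cbx5 (chromosome 15, 103191544 to 103239816) varied most widely among the abundant members. It had 22.2 CPM in the lowest, 37.5 in the median and 60.6 in the highest KO library, against 38.7, 22.3, 31.1, 24.1 and 30.5 CPM in WT replicates 1 to 5. The groups overlapped over most of the range, with KO replicate 5 at the top and KO replicate 6 at the bottom. The log2 difference was 0.34 ± 0.23 (SE; edgeR, adjusted p = 0.510) and was 0.17 without KO replicate 5.

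Cbx5 lies back to back with Hnrnpa1, which encodes an RNA-binding splicing factor, with RefSeq starts 545 bases apart (windows printed above). Hnrnpa1 had 16.7 CPM in the lowest, 27.8 in the median and 41.7 in the highest KO library, against 16.4, 16.6, 26.7, 22.0 and 18.7 CPM in WT replicates 1 to 5 (log2 0.44 ± 0.21, SE; edgeR, adjusted p = 0.367). KO replicates 5 and 6 were the highest and the lowest KO libraries for both genes. Over the 12 libraries Pearson's r of log2 CPM was 0.74 (permutation p = 0.00586, adjusted p = 0.0234 over 8 member and neighbour relations) and Spearman's rho 0.59 (permutation p = 0.0494, adjusted p = 0.132). Without KO replicates 5 and 3, the libraries farthest from the median of Cbx5, r was 0.43 (permutation p = 0.209), so that the relation rests on those libraries. Within KO r was 0.93 (exact permutation p = 0.00536) and within the shallower libraries 0.19 (exact permutation p = 0.665), while the 5 deeper libraries are too few for one.

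The comparable pair of Cbx3 and Hnrnpa2b1, another splicing factor, did not vary together (Pearson r = −0.30, permutation p = 0.355; Spearman rho = −0.25, permutation p = 0.431). Hnrnpa2b1 had 198 to 305 CPM in KO and 249 to 324 CPM in WT tumours, with 5 KO libraries below every WT library (log2 −0.34 ± 0.14, SE; edgeR, adjusted p = 0.295). Trim28 ran against its neighbour Slc27a5, a bile acid and fatty acid ligase of hepatocytes (Pearson r = −0.66, permutation p = 0.0197, adjusted p = 0.0526; Spearman rho = −0.66, permutation p = 0.0240, adjusted p = 0.0960). That relation was −0.65 without KO replicates 5 and 1, −0.55 within KO and 0.04 within the shallower libraries.

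The members did not vary as a block. Of the 45 pairs among the 10 members, 0 had a correlation with an adjusted p under 0.05 over the 12 libraries (permutation test, smallest adjusted p = 0.539 by Pearson's r and 0.595 by Spearman's rho). At an unadjusted p under 0.05 Pearson's r gave 1 pair, Trim28 with Cbx5 (Pearson r = 0.64, permutation p = 0.0265; Spearman rho = 0.55, permutation p = 0.0712). Its r was 0.54 without KO replicates 5 and 1, 0.59 within KO and −0.01 within the shallower libraries. Spearman's rho gave 1 other pair, Suv39h2 with Setdb1 (rho = 0.59, permutation p = 0.0440; Pearson r = 0.55, permutation p = 0.0658). Its r was 0.73 without KO replicate 7 and WT replicate 3, 0.56 within KO and 0.31 within the shallower libraries.

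The cell cycle list was read beside the members. Its 20 tested genes all had positive log2 differences with a median of 0.61, and 4 of them (Mcm7, Mcm4, Mcm6 and Ccnb2) had an unadjusted p under 0.05 in edgeR's test. That is 20% of the list, against 14.7% of all genes in either direction and 7.25% higher in KO, and 53.7% of all genes were positive. The mean log2 CPM of the list ran from 2.003 to 3.95 in KO libraries (median 2.51) and from 1.33 to 3.10 in WT libraries (median 2.73). None of the 10 members was correlated with that score after adjustment by either measure. By Pearson's r, 0 members had an unadjusted p under 0.05, and Cbx1 had the largest r (r = −0.57, permutation p = 0.0532, adjusted p = 0.355; Spearman rho = −0.48, permutation p = 0.116), with r at −0.45 without KO replicate 2 and WT replicate 3 and −0.72 both within KO and within the shallower libraries. By Spearman's rho there was 1, Suv39h2 (rho = 0.62, permutation p = 0.0370, adjusted p = 0.290; Pearson r = 0.49, permutation p = 0.106), with r at 0.34 without the same 2 libraries, 0.31 within KO and 0.63 within the shallower libraries.

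The genes whose levels ran most closely with a member were found by Pearson's r of log2 CPM over the 12 libraries, among 12116 genes (12117 for Suv39h2 and Ehmt2), and are a description of these libraries chosen for their r. For Ehmt1 they were Trrap, a scaffold of histone acetyltransferase complexes (r = 0.97), and Dvl3 of the Wnt pathway (r = 0.92). For Cbx5 Rapgef6 is named (r = 0.94). Trim28 ran closest to Polr2e, a subunit of RNA polymerase II (r = 0.94), and Pbrm1, a subunit of a SWI/SNF remodeller (r = 0.91). Setdb1 ran closest to Prkar1a, a regulatory subunit of protein kinase A (r = 0.91), and Spsb4 (r = 0.90), and Suv39h1 to Tamm41 (r = 0.90) and Lmo4 (r = 0.89). For Cbx1 the genes were Bcr and Sucnr1 (both r = 0.89), for Cbx3 Aen (r = 0.86) and Cep162 (r = 0.80), for Ehmt2 Apob and Hspa4l (both r = 0.88), and for Suv39h2 Spen and Clic4 (both r = 0.85). For Cep162 and Lmo4 the rank correlation was lower, at 0.41 and 0.62.

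Of the 27 tested partners of the H3K9 machinery 1 had groups that did not overlap, Cdyl, against 1.21% of all genes. Of 30 listed partners (bridging, corepressor, DNA methylation, chromatin assembly and PR domain proteins), 27 were tested. Their median log2 difference was 0.14, and 0 passed the adjusted threshold. At an unadjusted p under 0.05 there was 1 higher in KO and 2 lower, 11.1% of the tested partners against 14.7% of all genes. Cdyl, a chromodomain protein that binds methylated H3K9 and works with G9a, had 6.57 CPM in the lowest, 8.24 in the median and 11.9 in the highest KO library, against 5.55, 4.95, 3.93, 5.01 and 5.78 CPM in WT replicates 1 to 5. All 7 KO libraries lay above all WT libraries (log2 0.76 ± 0.20, SE; edgeR, adjusted p = 0.195). Zfp809, a KRAB zinc finger protein that brings Trim28 to retroviral DNA in mouse cells, had a log2 difference of −0.77 ± 0.27 (SE; edgeR, adjusted p = 0.251). Fam208a (TASOR), a core subunit of the HUSH complex that acts with Setdb1, had −0.46 ± 0.18 (SE; edgeR, adjusted p = 0.288).

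Of 11 listed demethylases, which remove the mark, 10 were tested, 9 of them with a positive log2 difference and a median of 0.13. Kdm1a (LSD1) alone had an unadjusted p under 0.05, at 0.42 ± 0.18 on the log2 scale (SE; edgeR, adjusted p = 0.326). That is 10% of the tested demethylases against 14.7% of all genes, of which 53.7% were positive. Among 25 genes of methyltransferases for other residues and of subunits of their complexes the median was 0.01. At an unadjusted p under 0.05 in edgeR's test 3 were higher in KO and 0 lower, 12% of the list against 14.7% of all genes. Prmt1, the main arginine methyltransferase, had 33.4 to 72.9 CPM in KO and 23.0 to 30.3 CPM in WT tumours with no overlap (log2 0.63 ± 0.19, SE; edgeR, adjusted p = 0.216). It was the 1 gene of these 25 without overlap, against 1.21% of all genes. Ezh2, which trimethylates lysine 27 of histone H3, had 5.15 to 13.7 CPM in KO and 3.51 to 5.91 CPM in WT tumours (log2 0.71 ± 0.27, SE; edgeR, adjusted p = 0.268).

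Enzymes that supply or clear S-adenosylmethionine had the largest share below the unadjusted threshold of these 4 lists of enzymes and partners. Of its 10 tested genes, 1 was higher and 3 were lower in KO at an unadjusted p under 0.05, 40.0% against 14.7% of all genes, and 0 passed the adjusted threshold in edgeR's test. Their median log2 difference was −0.72. Bhmt, which remethylates homocysteine with betaine, had 161 to 1254 CPM in KO and 465 to 2853 CPM in WT tumours (log2 −1.66 ± 0.55, SE; edgeR, adjusted p = 0.235). Mat2b, the regulatory subunit of the extrahepatic methionine adenosyltransferase, had 42.4 to 51.2 CPM in KO and 33.9 to 39.9 CPM in WT tumours with no overlap (log2 0.34 ± 0.09, SE; edgeR, adjusted p = 0.195). It was the 1 gene of these 10 without overlap, against 1.21% of all genes. Ahcy, which clears the inhibitory by-product S-adenosylhomocysteine, had a log2 difference of −0.89 ± 0.40 (SE). RNA levels of the enzymes carry no measure of the methyl mark itself, which was not assayed here.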

How the data were processed

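Libraries were grouped by their genotype label (7 KO, 5 WT), with replicates numbered in accession order. KO replicate 7 has a title that starts with KP and a Pck1-null label, which was followed. Total RNA with an integrity number above 8 went into the libraries, per the labels' protocols. Reads were aligned with HISAT2 to mm10, per the submitters' processing notes. The deposited table holds raw counts per gene from the authors. The sources used here name no counting program, strand setting or annotation.

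Genes passing filterByExpr (minimum count 10, minimum total 15) entered edgeR 4.0.16 under R 4.3.3 (TMM scaling, robust glmQLFit and glmQLFTest, KO against WT, no covariates, Benjamini-Hochberg over all 14666 genes tested, threshold 0.05). Log2 CPM used a prior count of 2, and printed CPM none. The common biological coefficient of variation was 0.492. No 2 libraries of a group agreed within sampling noise (smallest chi-square per degree of freedom 71.0). Correlations used Pearson's r and Spearman's rho with two-sided permutation tests (100000 resamples, exact under 10 libraries; SciPy 1.17.1), adjusted within each family. Depth classes were divided at 30000000 counts and Xist classes at 10 CPM. Gene positions and lengths (union of exons) came from GENCODE M21 and promoter windows from RefSeq, both on GRCm38. The edgeR, DESeq2 and limma-voom fits of KO against WT were tested on simulated counts.

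Alternatives were RLE and upper quartile scaling, limma-voom with sample weights (limma 3.58.1), DESeq2 1.42.0, other filters, no robust estimation, the title number range, depth class and Xist class as covariates, the shallower or deeper libraries alone, leaving out KO replicates 3, 4 and 6 (high in neutrophil granule genes in earlier results), leaving out KO replicate 3 and WT replicate 4 (overlapping Pck1), and each library left out in turn. The genotype by depth interaction, the correlations with neighbouring genes, the Setdb2 correlation over 9 libraries, the counts by Spearman's rho, the neutrophil sum without Lcn2, the order of the members within each genotype and the share of motifs among CG-rich windows were added after seeing the data. The members and gene lists were chosen with earlier results of these data known. Named genes were the members, Pck1, Xist, S100a11, neighbours at the promoters, up to 4 genes with the smallest p of each list, and the 2 most correlated genes of each tested member, of which 1 is not reported here. The marker lists of erythroid, T and NK, B and plasma, macrophage, endothelial, stellate and cholangiocyte cells were also measured and are given with the closing observations.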

Additional observations from a re-analysis of the deposited data

Results flagged for a closer look

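The Suv39h2 level in KO replicate 7 stood apart from the other 6 KO libraries, at a log2 CPM of −3.20 against −1.67 in the next lowest and −0.61 in the highest. It rests on 1 count. The Setdb1 level in WT replicate 4 stood apart below the other 4 WT libraries, at a log2 CPM of 4.01 against 4.40 in the next lowest and 4.55 in the highest. Each was picked out by Dixon's test of the gap to the nearest library against the range of the group, which flags about 1 group in 20 by chance.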

How the results depend on the processing

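No paired analysis was possible because the labels give no replicate numbers shared by the genotypes. The count of genes called (0 in edgeR) was 489 with DESeq2 and 2138 with limma-voom, 1 with upper quartile scaling, with no filter and with the 1 CPM filter, 2 with the title range and in the deeper libraries, 3 with the depth class, 6 without KO replicates 3, 4 and 6, and 0 to 65 with a library left out, 65 without KO replicate 6. Members at an unadjusted p under 0.05 (1) were 4 with limma-voom (where 33.2% of all genes were), 2 with no filter, the title range, the depth class or without KO replicate 3 and WT replicate 4, 0 with the Xist class and in the deeper libraries, and 1 to 3 with a library left out (3 without KO replicate 5, 2 without WT replicate 4). Without WT replicate 2 or 5, and in the shallower libraries, that 1 member was Suv39h1 (unadjusted p = 0.0350, 0.0166 and 0.00441 in edgeR) and not Trim28. Members without overlap (0) numbered 3 among the shallower libraries, 4 among the deeper, 1 without KO replicates 3, 4 and 6, and 0 with any single library left out. Ehmt2 turned positive with limma-voom (0.31), the title range (0.044) and in the deeper libraries (0.49), and lay between −0.48 and 0.18 with a library left out (positive without WT replicate 1). Cbx3 turned negative with the title range (−0.0054), in the shallower libraries (−0.28) and without KO replicates 3, 4 and 6 (−0.020), and lay between −0.029 and 0.16 with a library left out (negative without KO replicate 4). Ehmt1 turned negative in the shallower libraries (−0.059) and lay between −0.0022 and 0.12 with a library left out (negative without KO replicate 5), and Suv39h1 turned negative in the deeper libraries (−0.045). The correlation with the cell cycle score turned for Setdb1 (0.19), Ehmt1 (0.14), Ehmt2 (0.012) and Cbx3 (0.13) without the 2 farthest libraries, for Cbx3 within KO (0.013) and for Trim28 within the shallower libraries (0.17). The causes were not tested. Trim28 stayed positive in all 26 alternatives (log2 0.30 to 0.57) and Setdb1, Cbx1 and Cbx5 kept their direction in all 26. Counts under 100 limit Suv39h2, Setdb2 and Ehmt2.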

Other observations

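Other cell type markers were measured in the same libraries. The 7 endothelial markers summed to 127 to 615 CPM in KO and 336 to 533 CPM in WT tumours. At an unadjusted p under 0.05 in edgeR's test 3 of them were lower in KO, 42.9% against 14.7% of all genes in either direction. The 8 erythroid markers summed to 27.7 to 1421 CPM in KO and 143 to 823 CPM in WT tumours, and the 6 cholangiocyte markers to 25.7 to 4313 CPM in KO and 153 to 972 CPM in WT tumours. The 7 macrophage markers summed to 136 to 1106 CPM in KO and 274 to 656 CPM in WT tumours, and the 8 stellate and stroma markers to 161 to 527 CPM in KO and 182 to 663 CPM in WT tumours. The 8 T and NK cell markers summed to 4.32 to 32.8 CPM in KO and 6.82 to 17 CPM in WT tumours, and the 6 B and plasma cell markers to 3.19 to 77.0 CPM in KO and 22.3 to 77.6 CPM in WT tumours. Of the 10 neutrophil markers, 8 were higher in KO at an unadjusted p under 0.05 in edgeR's test, against 7.25% of all genes. Mpo, the myeloperoxidase of their granules, had 0.482 CPM in the lowest, 4.31 in the median and 87.9 in the highest KO library, against 0.388 to 1.90 CPM in WT libraries. S100a9 had a median of 13.0 CPM in KO and in WT libraries, with 3 KO libraries above every WT library. The part of these cell types in the levels of the H3K9 genes was not tested.

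Of the other divergent neighbours, C2, the complement component beside Ehmt2, had 0.0715 CPM in the lowest, 0.915 in the median and 1.94 in the highest KO library, against 0.502 to 3.75 CPM in WT libraries (log2 −1.40 ± 0.65, SE; edgeR, adjusted p = 0.341). How fully its reads were counted was not tested.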
